A study of Capra hircus with 6 samples.

Results

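MiR-320, miR-451, miR-877 and miR-1224 are miRNAs whose hairpins bypass one of the cutting steps of the usual pathway, and their products were examined here in the longissimus dorsi, a back muscle, of Haimen goats. Members were chosen by name alone: every distinct name in the deposited list of expressed miRNAs that carries one of these 4 miRNA numbers, whatever its species prefix, letter, arm or variant suffix. This gave 19 of 1120 distinct names, with 13 names for miR-320, 1 for miR-451, 4 for miR-877 and 1 for miR-1224. The 933 other names that are not predicted miRNAs are called canonical below, a label by exclusion that was not checked name by name. Small RNA was sequenced from lambs (the labels' word for the newborn stage) aged 1 day and from fetuses at day 75 of pregnancy, with 3 libraries per stage. The labels name no genotype or treatment, and since they tie no library to an animal of its own, every p-value refers to the spread between libraries, part of which may be technical. Reads assigned to miRNAs numbered 6096009 to 9471852 in the lamb libraries and 8506742.5 to 13756954 in the fetal libraries. All 7 striated muscle miRNAs looked for were listed. Of their 9 tested names 4 rose and 1 fell in lambs, where 16.3% of all 712 names tested rose and 27.1% fell. The name chi-miR-133a-3p averaged 196060 ± 36026 CPM (reads scaled to a common library size) in lambs and 33760 ± 4019 in fetuses (SD, n = 3 each). The summed level of the 7 miRNAs ran from 219731 to 311804 in lambs and from 54855 to 66332 in fetuses.

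In the usual route the nuclear enzyme Drosha cuts a hairpin out of a long transcript, and the cytoplasmic enzyme Dicer then removes its loop, leaving a 5p and a 3p strand of which one is usually kept. MiR-877 and miR-1224 are mirtrons: in mammals their hairpin is a short intron released by splicing, which takes the place of Drosha. The miR-320 hairpin, as worked out in mouse and human cells, starts at the first base of its own transcript, so it carries a cap and needs no Drosha cut, and its 3p strand is the one that is used. MiR-451, studied in mouse, zebrafish and human cells, has a hairpin too short for Dicer. It is sliced by the Argonaute protein AGO2 and then trimmed at its 3′ end, so its only product is a long 5p strand that runs into the loop. MiR-451 is known chiefly from red blood cells, and miR-320 and miR-877 are found in many tissues.

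The main listed sequence of each arm is shown because the features of each route can be read from it. They are the deposited sequences, 5′ to 3′, with T for U, and the capitals mark the seed, bases 2 to 8, which governs target choice.
chi-miR-320-3p: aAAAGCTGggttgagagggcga
chi-miR-451-5p_R+4: aAACCGTTaccattactgagttt
chi-miR-877-5p_R+3: gTAGAGGAgatggcgcaggggaca
chi-miR-877-3p_1ss22GT: tCCTCTTCtccctcctcccagt
chi-mir-1224-p3_1ss22GT: cCCCACCTcctctctcctcagt

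None of these 5 seeds occurred in a listed name of another miRNA number. The miR-320 seed was shared by 12 of the 13 miR-320 names; the exception has lost its first base. In the names, R+4 means 4 bases more at the 3′ end than in the miRBase registry entry, L-1 means 1 base fewer at the 5′ end, and 1ss22GT is the substitution G22T, counted from 1 at the 5′ end. The files do not define these suffixes, and they are read here in their usual sense. A name such as hsa-miR-320d gives the human entry nearest to the goat read, not a human RNA.

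The hairpins differed in which arms were listed. MiR-320 was listed from the 3p arm only, miR-451 from the 5p arm only and miR-877 from both arms. MiR-1224 was listed from a 3p arm classed as new under a goat name. Whether other species have an entry for that arm was not checked. Of the 310 canonical miRNA numbers, 146 (47.1%) had both arms listed, 51 (16.5%) the 5p arm only and 47 (15.2%) the 3p arm only, so a single listed arm is no mark of the members. In miR-877 the arms were close to even: the 3p arm gave 45.1% of the 2240 reads of its goat names, whereas the rarer arm of the 167 miRNAs with both arms and at least 100 reads gave a median of 3.68%. MiR-877 ranked 5th of the 167 by this measure, which is a description of 1 pooled value per miRNA with no test.

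**Figure D1:**
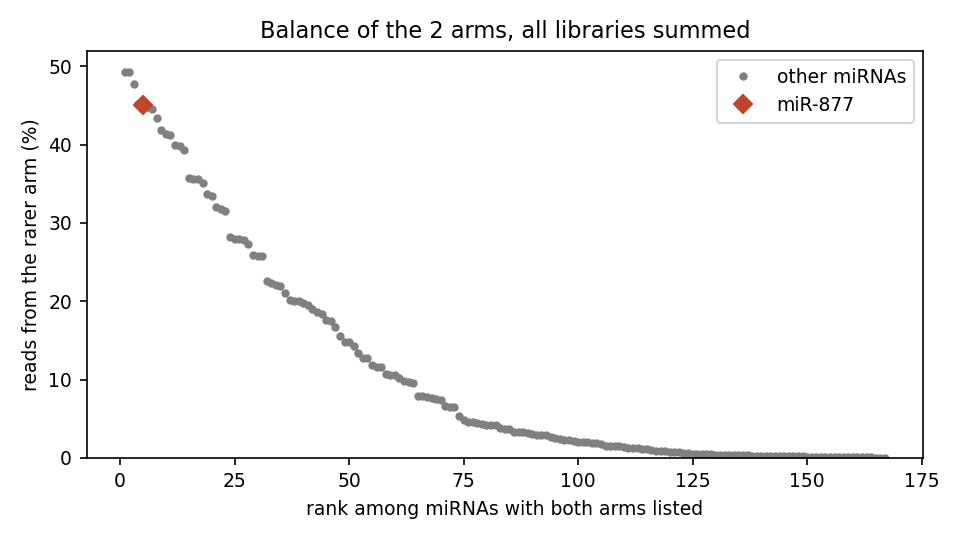
Share of reads from the rarer arm (y axis, %) for the 167 miRNAs with both arms listed and at least 100 reads over the 6 libraries, ordered by that share (x axis, rank). MiR-877 (diamond) stands at 45.1%, against a median of 3.68%.

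The 3p strands of both mirtrons had the sequence of an intron's end followed by a T. An intron starts with GT and ends with a run of pyrimidines and AG, so these letters were searched at the ends of the listed sequences, on the RNA strand only. MiR-877-5p starts with GT, as did 7 of 303 canonical 5p names (2.31%). MiR-877-3p and the miR-1224 3p sequence end with AGT, as did 15 of 287 canonical 3p names (5.23%), and both end with CAGT, as did 9 of 287 (3.14%). In both names the last T is the annotated difference G22T, so the AG at the intron's end is followed by a base that differs from the sequence the name was matched to. C and T made up 90.9% of chi-miR-877-3p_1ss22GT and 86.4% of chi-mir-1224-p3_1ss22GT, against a median of 54.5% over the canonical 3p names, of which 0 and 2 reached these values. MiR-877-5p was instead rich in purines, with 79.2% A and G against a median of 47.6% in the canonical 5p names. A GT start and an AG or AGT end on the opposite arms of 1 miRNA number were found in 1 of 146 canonical numbers with both arms. Whether the added T is encoded in the genome was not tested.

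MiR-451 and miR-877-5p were listed as long products. The miR-451 sequence has 23 bases, 4 more than its registry entry and all of them at the 3′ end. Sequences of at least 23 bases made up 28.1% of the canonical names, whose median was 22. The main miR-877-5p sequence has 24 bases, 3 more than its entry, a length that 39 of 303 canonical 5p names (12.9%) reached or passed.

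Most changes from the registry fell on the 3′ side of the member sequences, and in the canonical names too the 3′ end was changed more often. Of the 19 names, 2 (10.5%, 95% exact interval 1.30 to 33.1%) were identical with a registry entry, 16 differed and 1 was new. Of the 933 canonical names, 291 (31.2%, 28.2 to 34.3%) were identical. Among names with the goat prefix, which take in 5 of the 19 members (26.3%) and 367 of the canonical names (39.3%), 1 of 5 (20%) and 214 of 367 (58.3%) were identical. A gain or loss of bases was annotated at the 3′ end in 10 of 19 member names (52.6%, 28.9 to 75.6%) and at the 5′ end in 1 (5.26%, 0.133 to 26.0%). In the canonical names it was annotated at the 3′ end in 383 (41.1%) and at the 5′ end in 162 (17.4%). A substitution was carried by 10 member names, and 8 of these 10 substitutions lay in the last 3 bases and 0 in bases 2 to 8. Of 260 substitutions in canonical names, 83 (31.9%) lay in the last 3 bases and 59 (22.7%) in bases 2 to 8. The 13 miR-320 names share most of their bases with each other, so the member names are not independent and these shares carry no test. Whether the miR-320 names come from 1 goat gene was not tested.

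The 12 lesser miR-320 names all departed from chi-miR-320-3p before its 3′ end and ended in A or T. In 9 of them the sequence followed the goat one without a change up to base 16 to 20. The other 3 also followed it to base 18 or 19 apart from 1 change each, which was G9T in hsa-miR-320c_1ss9GT and hsa-miR-320d_1ss9GT and the loss of base 1 in mml-miR-320b_L-1_1ss20CA. The ends that departed from the goat sequence had 1 to 3 bases, A only in 7 names, T only in 3 and both in 2. The 7 of them with the most reads are shown, with the tail that departs from the goat sequence in capitals.
hsa-miR-320b_R+1: aaaagctgggttgagagggcAAT
mml-miR-320b_R-2_1ss20CT: aaaagctgggttgagagggT
mml-miR-320b_R-1_1ss20CA: aaaagctgggttgagagggAA
hsa-miR-320d: aaaagctgggttgagaggA
hsa-miR-320c_1ss9GT: aaaagctgtgttgagagggT
hsa-miR-320d_1ss18GA: aaaagctgggttgagagAA
ppy-miR-320e_R-4_1ss18GA: aaaagctgggttgagaAA

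The remaining 5 names had 6.5 to 17 reads each over the 6 libraries. Since no goat genome was compared, it was not tested whether these sequences come from the MIR320 gene or from other copies. The word tailed is used below for the sequence only, and hsa-miR-320d is identical with its registry entry, final A included. The files do not say whether further end variants are counted under each listed sequence.

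Tailed reads were a larger part of miR-320 in each of the 3 lamb libraries than in the 3 fetal ones. The share was 1.38%, 1.89% and 2.58% in lambs 1, 2 and 3, against 0.752%, 0.778% and 0.689% in fetuses 1, 2 and 3. The means were 1.95% ± 0.602 in lambs and 0.740% ± 0.0458 in fetuses (SD, n = 3 each), 2.64 times as high in lambs. The fetal libraries lay close together and the lamb libraries were spread. The share is taken within each library, so scaling between libraries does not touch it. By a two-sided exact permutation test p was 0.10 (adjusted p = 0.25 over 5 tests), and with 3 libraries per stage no lower p can be reached. The shares rest on 215 to 648 reads per library.

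The stages were apart at the 3 cut points with the most reads. Tails after base 20 made up 0.813% ± 0.219 of miR-320 reads in lambs and 0.325% ± 0.0246 in fetuses. Tails after base 19 made up 0.869% ± 0.276 in lambs and 0.358% ± 0.0240 in fetuses, and tails after base 18 made up 0.196% ± 0.10 in lambs and 0.050% ± 0.0219 in fetuses (SD, n = 3 each). At these 3 cut points no lamb library overlapped a fetal one; tails after bases 16 and 17 had at most 14.5 reads in a library, with 0 listed in at least 1 fetal library. The smallest names are affected by a reporting limit: of 3585 values above 0 for names without shared reads, 217 were at 5 reads and 11 below 5, so a 0 can stand for a few reads. With the 5 tailed names listed in all 6 libraries only, the share was 1.82% ± 0.546 in lambs and 0.717% ± 0.0330 in fetuses (SD, n = 3 each).

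**Figure D2:**
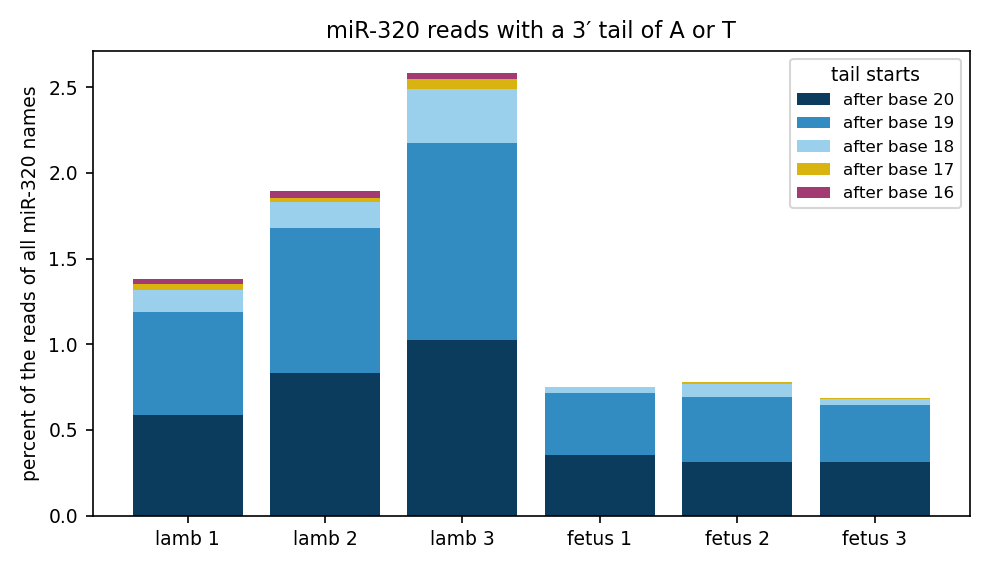
Reads of tailed miR-320 names as a percent of all miR-320 reads (y axis) in the 3 lamb and the 3 fetal libraries (x axis), stacked by the last base shared with the goat sequence. Lamb bars reach 1.38% to 2.58% and fetal bars 0.689% to 0.778%.

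The tailed share of some other miRNA numbers was higher in lambs too. The same measure was computed for each of the 14 miRNA numbers that had a name sharing at least the first 16 bases with the most abundant name of that number and then 1 to 3 bases of A or T only. A number takes in all its letters, so names from related genes can meet this rule, and their origin was not tested. In 6 of the 14 (42.9%) every lamb library was above every fetal one, and in 1 (7.14%), miR-877, every lamb library was below. The 6 take in miR-320 itself. In 3 of these 7 miRNAs (miR-23, miR-151 and miR-877) 1 stage had libraries listed at 0, which at the reporting limit can stand for a few reads. Among the 8 miRNAs with tailed reads in all 6 libraries, the lamb libraries were above in 4 (50%), which are miR-320, miR-339, miR-378 and miR-92, and below in 0. By this stricter measure, which leaves out names with an internal change or a changed 5′ end, miR-320 had 1.89% ± 0.562 in lambs and 0.716% ± 0.0373 in fetuses. MiR-378, a miRNA abundant in this muscle, had 1.31% ± 0.392 in lambs and 0.652% ± 0.0312 in fetuses. MiR-92 had 0.900% ± 0.0985 in lambs and 0.621% ± 0.0540 in fetuses, and miR-339 had 8.25% ± 0.534 in lambs and 6.16% ± 0.135 in fetuses (SD, n = 3 each).

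**Figure D3:**
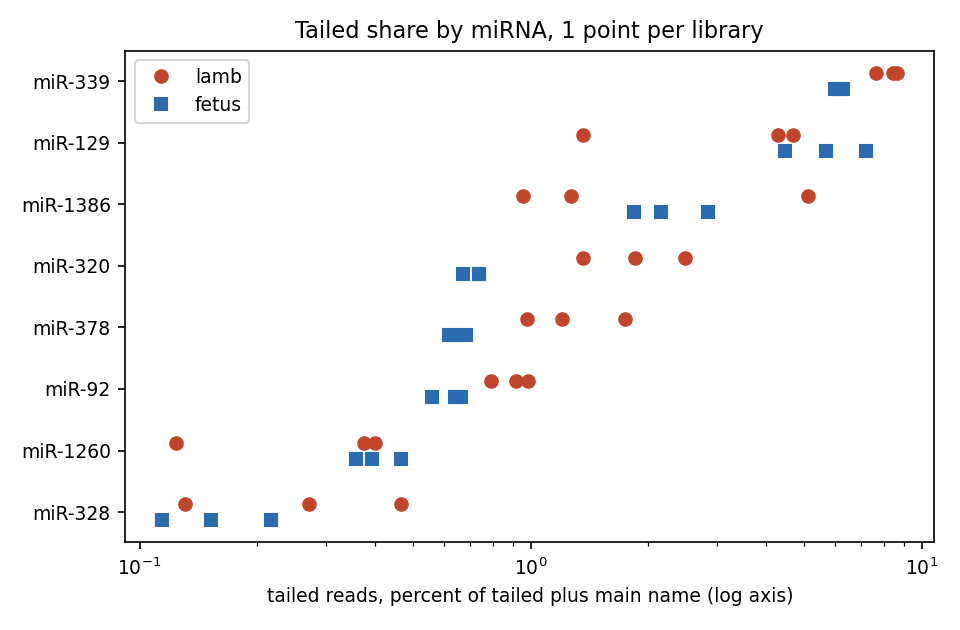
Tailed reads as a percent of tailed reads plus reads of the most abundant name (x axis, log scale), 1 point per library, lamb circles above fetal squares, for the 8 of 14 miRNA numbers with tailed reads in all 6 libraries. The stages do not overlap for miR-320, miR-378, miR-92 and miR-339.

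The full-length miR-320-3p had overlapping levels at the 2 stages. It gave 2569, 3009 and 2998 CPM in lambs 1, 2 and 3, against 2926, 3393 and 3235 in fetuses 1, 2 and 3, scaled by TMM (a scaling that sets the bulk of miRNAs equal between libraries). Its log2 difference, lamb over fetus, was -0.16 ± 0.12 (SE) and did not pass the test (edgeR quasi-likelihood, Benjamini-Hochberg adjusted p = 0.325 over 712 names). The sum over all 13 miR-320 names, dominated by this one, was 2917 ± 270 CPM in lambs and 3209 ± 240 in fetuses (SD, n = 3 each, exact permutation p = 0.30, adjusted p = 0.30). By this sum miR-320 ranked 41st of 314 miRNA numbers.

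Of the 19 member names, 8 passed the filter on low counts and could be tested, and 4 of these, all tailed miR-320 names, were called higher in lambs at an adjusted p under 0.05. None of the 8 was called lower. Over all 712 names tested, 309 (43.4%) were called, 116 (16.3%) higher and 193 (27.1%) lower in lambs. The median log2 difference was 0.41 over the 8 member names, against -0.12 over all names tested. No member name lay near 0.41: the 4 tailed names had 0.98 to 1.88 and the other 4 had -0.79 to -0.16. The 4 names that rose share their first 18 bases and are not treated as independent. Whether they come from 1 gene was not tested. The filter asks for a minimum count in at least 3 libraries, as many as 1 stage has, whichever stage they belong to. It therefore favours names that are high in either stage.

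The most frequent tailed name, hsa-miR-320b_R+1, gave 15.3, 25.5 and 31.5 CPM in lambs 1, 2 and 3, against 10.4, 10.6 and 10.1 in fetuses 1, 2 and 3. Its log2 difference was 1.21 ± 0.32 (SE, edgeR adjusted p = 0.0225). The name mml-miR-320b_R-2_1ss20CT gave 11.8, 19.9 and 21.6 CPM in lambs, against 8.68, 9.76 and 8.46 in fetuses. These values do not overlap, and the log2 difference was 0.98 ± 0.31 (SE, edgeR adjusted p = 0.0427). The names mml-miR-320b_R-1_1ss20CA and hsa-miR-320d differed most, by 1.86 ± 0.55 and 1.88 ± 0.51 on the log2 scale (SE, edgeR adjusted p = 0.0327 and 0.0234). In hsa-miR-320d the lamb libraries held 2.24, 4.15 and 6.44 CPM and the fetal libraries 0.842, 1.51 and 1.15. In mml-miR-320b_R-1_1ss20CA the lamb libraries held 3.32, 5.12 and 11.9 and the fetal libraries 1.42, 2.31 and 1.88. For all 4 names lamb 1 was the lowest lamb library and lamb 3 the highest.

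Without lamb 1 all 4 names still passed, with edgeR adjusted p from 0.0122 to 0.0226, and without lamb 2 all but mml-miR-320b_R-2_1ss20CT (0.0675) passed, with 0.0339 to 0.0371. Without any 1 of the fetal libraries none of the 4 passed, with edgeR adjusted p from 0.0771 to 0.0810 for hsa-miR-320b_R+1, 0.110 to 0.139 for mml-miR-320b_R-2_1ss20CT, 0.0818 to 0.115 for mml-miR-320b_R-1_1ss20CA and 0.0589 to 0.0870 for hsa-miR-320d. Without lamb 3, hsa-miR-320b_R+1 passed (edgeR adjusted p = 0.0490), whereas mml-miR-320b_R-2_1ss20CT (0.0888), hsa-miR-320d (0.0628) and mml-miR-320b_R-1_1ss20CA (0.0731, log2 difference 1.15) did not. The log2 differences stayed above 0 in all of these fits.

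Scaling moved the level differences by a similar amount in every name. The median log2 difference over all names was -0.12 with TMM, 0.07 with the authors' library factors and -0.49 with library totals only, where 72 names were called higher and 261 lower in lambs, against 116 and 193 with TMM. For chi-miR-320-3p the log2 difference was -0.16 with TMM, 0.04 with the authors' factors and -0.53 with totals (edgeR adjusted p = 0.0185 with totals). Relative to the median of all names it was -0.04, -0.03 and -0.03 in these fits. With totals, hsa-miR-320d alone among the tailed names still passed (edgeR adjusted p = 0.0495), while hsa-miR-320b_R+1 (0.0744), mml-miR-320b_R-1_1ss20CA (0.0655) and mml-miR-320b_R-2_1ss20CT (0.160) did not. Relative to the median of all names, hsa-miR-320b_R+1 was 1.33 higher in lambs under each of the 3 scalings and hsa-miR-320d 2.0, 2.01 and 2.0 with TMM, the authors' factors and totals.

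**Figure D4:**
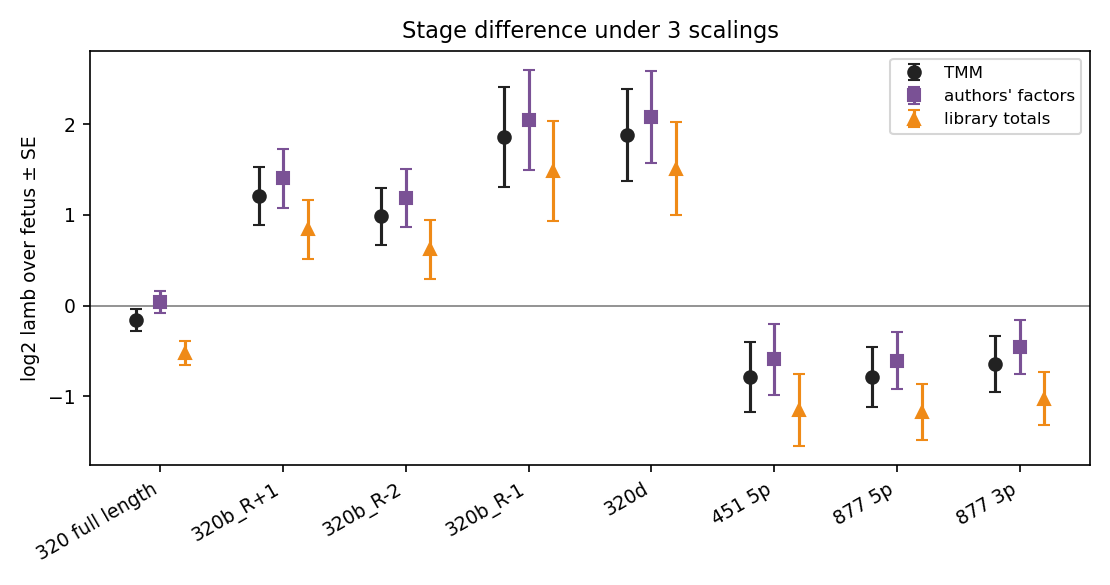
Log2 difference, lamb over fetus, with its SE (y axis) for the 8 member names tested (x axis) under TMM (circles), the authors' library factors (squares) and library totals only (triangles). Full-length miR-320 lies between -0.53 and 0.04, the tailed names lie above 0 and the miR-451 and miR-877 names below 0 in all 3.

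The 8 miR-320 names that were not tested had at most 14.5 reads in a library. All 12 lesser names had a higher mean in lambs, but the same share over all names was not computed. In the names with the fewest reads the direction rests on lamb 3, below the reporting limit. There mml-miR-320b_L-1_1ss20CA had 4.5 reads against 2.5 in fetus 2, and hsa-miR-320c_1ss19GT had 3.5 against 3. The shortest, ppy-miR-320e_R-4_1ss18GA, was listed with 6.5, 6.5 and 9.5 reads in lambs 1, 2 and 3 and at 0 in the 3 fetal libraries, although the fetal libraries hold more miR-320 reads. The names hsa-miR-320d_R+1_1 and hsa-miR-320d_R+1_2 have the same count in all 6 libraries. Their tails differ, AA in the first and AT in the second, and both stay in the counts of names. Together they had 8 reads in lamb 1, 12 in lamb 3 and 5 each in fetuses 1 and 2.

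Both strands of miR-877 had lower values in the 3 lamb libraries than in the 3 fetal ones, without passing the test. The share of all tested names whose levels separate the stages without overlap was not computed. The goat 5p name of miR-877 gave 19.5, 9.0 and 15.0 CPM in lambs 1, 2 and 3, against 23.3, 27.6 and 24.3 in fetuses 1, 2 and 3. Its 3p name gave 14.8, 9.35 and 15.1 CPM in lambs, against 15.5, 23.2 and 22.6 in fetuses. The log2 differences were -0.79 ± 0.33 for chi-miR-877-5p_R+3 and -0.64 ± 0.31 for chi-miR-877-3p_1ss22GT (SE, edgeR adjusted p = 0.101 and 0.142). With library totals only, both passed (-1.17 and -1.02, edgeR adjusted p = 0.0199 and 0.0289), and relative to the median of all names they were -0.67 and -0.52 with TMM and -0.68 and -0.53 with totals. Summed over its 4 names, miR-877 had 27.6 ± 8.29 CPM in lambs and 47.3 ± 6.43 in fetuses (SD, n = 3 each), with exact permutation p = 0.10 (adjusted p = 0.25 over 5 tests).

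The arm balance of miR-877 did not separate the stages. The 3p arm made up 43.1%, 51.0% and 50.2% of miR-877 reads in lambs 1, 2 and 3, against 38.7%, 44.2% and 45.9% in fetuses 1, 2 and 3. These values overlap (exact permutation p = 0.30, adjusted p = 0.30), with means of 48.1% ± 4.32 in lambs and 42.9% ± 3.74 in fetuses (SD, n = 3 each). The remaining names, ptr-miR-877_R+3_1 and ptr-miR-877_R+3_2, are longer 5p forms of 25 bases with equal counts in all 6 libraries. Together they were listed at 0 in the 3 lamb libraries, against 20, 20 and 22 reads in fetuses 1, 2 and 3, and no fold is given against a stage listed at 0.

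MiR-1224, the other mirtron, was at the edge of detection. Its 3p sequence was listed with 7 reads in fetus 1 and at 0 in the 3 lamb libraries and the other 2 fetal libraries, and it was not tested. It ranked 309th of 314 miRNA numbers by mean level, against 177th for miR-877. Of the 8 other mirtrons looked for by name (miR-702, miR-1225 to miR-1229, miR-1236 and miR-1238), 0 were listed.

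MiR-451 varied as much within a stage as between stages. It gave 60.6, 107 and 111 CPM in lambs 1, 2 and 3, against 108, 133 and 242 in fetuses 1, 2 and 3. Lamb 3 lay above fetus 1, so the stages overlapped, and lamb 1 and fetus 3 stood apart at the low and high end. The log2 difference of chi-miR-451-5p_R+4 was -0.79 ± 0.39 (SE, edgeR adjusted p = 0.146), and -0.40 without fetus 3. With totals it was -1.15 (edgeR adjusted p = 0.0526). The exact permutation test of the level gave p = 0.20 (adjusted p = 0.30 over 5 tests). In a piece of tissue, fewer cells of a type and less RNA per cell cannot be told apart.

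Markers of blood did not move together, and their part in the miR-451 values was not tested. MiR-144 is the neighbour of miR-451 in the goat annotation, where no other gene lies between MIR451 and MIR144, and in mammals both come from 1 transcript, but miR-144 takes the usual Drosha and Dicer route. Its 5p arm fell, with 1.28, 1.06 and 1.23 CPM in lambs 1, 2 and 3, against 3.63, 4.26 and 4.59 in fetuses (chi-miR-144-5p, log2 difference -1.79 ± 0.35 SE, edgeR adjusted p = 0.00677). Its 3p arm averaged 2.77 ± 1.90 in lambs and 3.21 ± 0.661 in fetuses (chi-miR-144-3p_R+3, edgeR adjusted p = 0.746). MiR-451 had 22.6, 17.9 and 34.8 reads for each miR-144 read in lambs, against 16.4, 18.9 and 28.2 in fetuses, and these ratios overlapped. MiR-486, known from both red blood cells and muscle, rose: bta-miR-486_R+1 averaged 32107 ± 7763 CPM in lambs and 7502 ± 342 in fetuses (SD, n = 3 each, edgeR adjusted p = 0.000428). Of the 7 names of the red blood cell list (miR-451, miR-144, miR-486), 4 rose, all of them miR-486 names, 1 fell and 2 did not pass. Over all 712 names tested, 16.3% rose and 27.1% fell. The summed level of the list, nearly all of it miR-486, ran from 24657 to 40395 in lambs and from 7550 to 8375 in fetuses.

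White blood cell markers were also mixed. Of the 4 markers (miR-142, miR-150, miR-155, miR-223), 7 names were listed and 5 tested, of which 2 rose and 1 fell. Over all names tested, 16.3% rose and 27.1% fell. The summed level of the 7 marker names ran from 593 to 1084 CPM in lambs and from 190 to 200 in fetuses. The name chi-miR-150, of lymphocytes, averaged 719 ± 247 in lambs and 48.6 ± 11.4 in fetuses, and chi-miR-155-5p averaged 65.7 ± 12.1 in lambs and 134 ± 18.2 in fetuses (SD, n = 3 each). Their edgeR adjusted p were 0.000346 and 0.0114.

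MiR-484, which like miR-320 comes from a capped hairpin that needs no Drosha cut, was lower in lambs. It gave 1186, 1039 and 806 CPM in lambs 1, 2 and 3, against 1405, 1770 and 1625 in fetuses 1, 2 and 3. The stages did not overlap, and the log2 difference of bta-miR-484 was -0.66 ± 0.18 (SE, edgeR adjusted p = 0.0260), where that of full-length miR-320 was -0.16. Its sign was the same under each scaling, but the call was lost with the authors' factors (-0.47, edgeR adjusted p = 0.0757), with DESeq2 (adjusted p = 0.0643), with the replicate block (edgeR adjusted p = 0.0660) and without fetus 2 or fetus 3 (edgeR adjusted p = 0.105 and 0.0807). The difference between the changes of miR-484 and miR-320 was not tested.

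**Figure D5:**
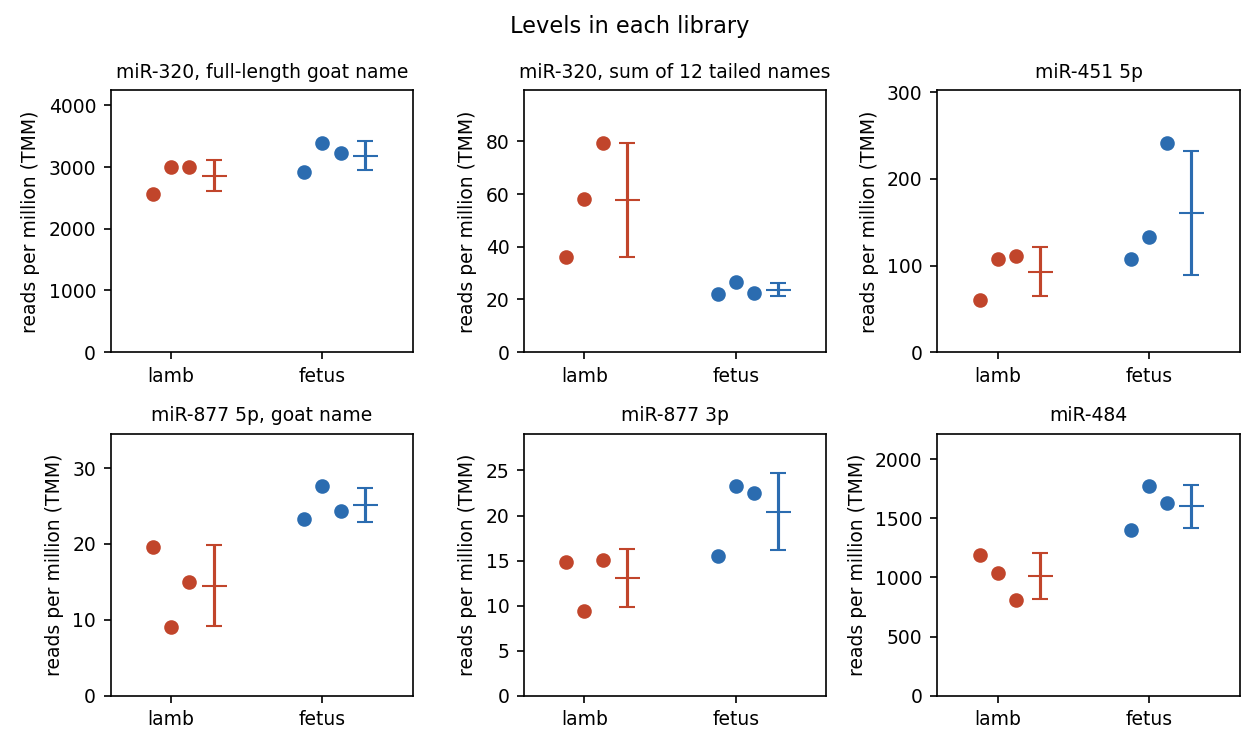
Level in CPM, TMM-scaled (y axis, from 0), in each lamb and fetal library (points), with the mean and SD (bars, n = 3 each), for full-length miR-320, the sum of its 12 tailed names, miR-451, both arms of miR-877 and miR-484. Tailed miR-320 names sum to 36.0 to 79.5 in lambs and 22.2 to 26.6 in fetuses, while full-length miR-320 and miR-451 overlap between stages.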

How the data were processed

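Per the labels' protocols, libraries were made with a TruSeq small RNA kit, size-selected on a gel and sequenced on an Illumina instrument. Of genome builds, the submitters' processing notes name only mm9; which goat build, aligner and miRBase release were used is not given in the sources used here. Deposited raw values are estimated counts, since reads shared between names are split by the authors into fractions. They were rounded to whole numbers before testing. The deposited normalized signal equals the raw count times 1 factor per library, set by the authors. The authors' deposited p-values come from a t-test, per the file headers. The deposited list of names gives a class (identical, differing, new) against miRBase.

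Of 1120 names, 1119 had counts here. Lamb was tested against fetus with edgeR 4.0.16 (TMM, giving counts per library size scaled to CPM; filterByExpr with a minimum count of 10, quasi-likelihood test, Benjamini-Hochberg over 712 names) in R 4.3.3. The SE is the log2 difference divided by the square root of F. Alternatives were DESeq2 1.42.0, no filter, other scalings, a replicate block and leaving out libraries. Sums and shares were tested by exact two-sided permutation of log2(value + 1) or percent, in Python 3.11.15 with scipy 1.17.1. The fit was tested on simulated counts. Library totals of 6096009 to 13756954 reads set the counting error, which the SD between libraries includes; the binomial intervals on shares of names are exact at 95%. Members and lists were chosen with earlier results of these data known. The text names every member and the fixed list names it needs; names most like a member were taken by Pearson correlation. Which genes are neighbours was read from a RefSeq gene table (assembly ARS1.2).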

Additional observations from a re-analysis of the deposited data

How the results depend on the processing

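Of 150 alternative values, 121 counted as unchanged by rules that differed between results. For single names the rule was the same direction and side of the threshold, and for sums and shares of reads the same direction only. Counts of names called had to stay within a factor of 1.5 of the main count. Registry and end-change percentages had to lie within the exact interval of the main value. A further 24 values kept the direction of a tailed miR-320 name but lost its call. Another 3 gained a call (full-length miR-320 and both arms of miR-877, with library totals), and 2 changed sign. With the authors' library factors, the log2 difference of chi-miR-320-3p was 0.0378 (edgeR adjusted p = 0.812) and that of the miR-320 sum 0.0517 (exact permutation p = 0.70), against -0.16 and -0.14 with TMM. The 309 names called became 207 to 344 when 1 library was left out, 347 with DESeq2, 299 without the filter, 333 with library totals and 308 with the authors' factors. Without the filter, mml-miR-320b_R-2_1ss20CT lost its call (edgeR adjusted p = 0.0552), the other 3 tailed names kept theirs (0.0275 to 0.0330) and ppy-miR-320e_R-4_1ss18GA, which the filter removes, was called (0.0370). DESeq2 called the same 4 tailed names, with adjusted p from 0.00270 to 0.0133, and also ppy-miR-320e_R-4_1ss18GA (0.00508) and the equal pair ptr-miR-877_R+3_1 and ptr-miR-877_R+3_2 (0.0401). Leaving out 1 library gave differences from -0.20 to -0.06 (log2) for the miR-320 sum, -0.99 to -0.41 for miR-451 and -0.97 to -0.53 for miR-877, from 0.898 to 1.5 percentage points for the tailed share and 3.08 to 7.67 points for the miR-877 3p share.

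Same-numbered libraries had correlations of their deviations from the stage means of 0.163, 0.365 and -0.386. Differently numbered ones ran from -0.628 to 0.548. With 3 libraries per stage, these values cannot show whether the numbers pair the samples. With the replicate block 228 names were called and none of the 4 tailed names, with adjusted p from 0.0592 to 0.0860; the tailed share differed by 1.21 points (exact sign-flip p = 0.25; 3 pairs can give no lower p). The planned pseudocounts and median centring were not run, since the files hold counts. The alternative scalings and the names listed in all libraries were chosen after seeing the data. Depth limits every name near the reporting limit of about 5 reads.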

Other observations

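In the authors' deposited table, which gives a t-test p per name, 3 of the 19 member names had p under 0.05: ppy-miR-320e_R-4_1ss18GA with 0.0127, and ptr-miR-877_R+3_1 and ptr-miR-877_R+3_2 with 0.0241 each. All 3 are names listed at 0 throughout 1 stage. The names ptr-miR-877_R+3_1 and ptr-miR-877_R+3_2 have equal counts in every library, so they are not independent of each other. The same share over all names in that table was not computed, so this count has no background to be read against. The 4 tailed names called with edgeR had p from 0.0865 to 0.183 in the authors' deposited table.

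The names whose profile over the 6 libraries was most like that of a member were chi-miR-125a-5p_R+1 for full-length miR-320 (Pearson r = 0.956), chi-let-7f-3p_1ss22CT for miR-451 (r = 0.934) and chi-miR-1307-3p for miR-877-5p (r = 0.985). These are correlations of log2 levels over the same 6 libraries, 3 per stage, so they partly reflect the stage difference, and they are given as a description.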
